A study of Mus musculus with 2 samples.

Results

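The genes described here encode the liver's main conjugating enzymes, the glutathione S-transferases (GSTs), the UDP-glucuronosyltransferases (UGTs) and the sulfotransferases (SULTs). A probe set is a group of oligonucleotides on the array that gives 1 signal, and some probe sets match several transcripts. A gene was included when its probe set carried a single gene symbol beginning with Gsta, Gstk, Gstm, Gsto, Gstp, Gstt, Gstz, Mgst, Ugt1, Ugt2, Ugt3 or Sult. This gave 52 probe sets for 40 genes, 21 GST, 8 UGT and 11 SULT genes, out of 12393 genes with such a probe set in the series. No probe set with a single symbol began with Ugt1.

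The study asked which liver transcripts differ when oleanolic acid, a plant triterpenoid, is added to a Western diet. All animals were males of the C57BL/6J strain background, apolipoprotein E-deficient in the control group as well, and 2 months old at the start. For 11 weeks the oleanolic acid group ate a semipurified Western diet holding 0.01% of the compound (10 mg/kg/day), and the control group ate that diet without it. Each group is 1 array of pooled liver RNA, the number of mice per pool is not given in the sources used here, and the growth protocol of the control sample also names oleanolic acid, so groups were taken from titles and diets. There is therefore no replicate and no test. Every difference below describes these 2 arrays, and the errors given are differences between probe sets within them.

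Conjugation makes foreign compounds, hormones and bile products more soluble so that they can be exported. GSTs join reactive electrophiles to glutathione, UGTs transfer glucuronic acid from UDP-glucuronate, and SULTs transfer sulfate from the donor PAPS. In mouse liver many GST genes are targets of the transcription factor Nrf2 (Nfe2l2), which acts through the antioxidant response element, and several SULT genes are expressed mainly in females. Whole liver was measured, so fewer cells of a type and less RNA per cell cannot be told apart.

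The measured transcripts of the 3 families differed little between the oleanolic acid and control arrays. Their median absolute log2 ratio was 0.13, the same as over all measured genes, but it was somewhat larger than that of all genes of like signal. It was 0.12 for the 22 of them in the brightest of 4 equal bands of signal, against 0.09 over all genes of that band. For the 9 dimmer ones it was 0.19, against 0.15 over all genes of the dimmer bands. Of the 40 genes, 31 were measured, meaning that at least 1 array gave a signal at or above its own median (59.3 units in the oleanolic acid array and 61.5 in the control array), and all 31 reached the median on both arrays. All 31 had a log2 ratio of oleanolic acid over control within 0.5 of 0, that is, they differed by less than 1.41-fold. None of the 31 passed the log2 ratio of 1.5 in either direction that the submitters' design names, which 0.392% of all 7137 measured genes did. None was above 0.5, against 2.63% of all measured genes, and none was below -0.5, against 3.24%. In the brightest band these shares of all genes were lower, 1.74% and 1.01%. At the smaller size of 0.25, 1 of 31 was above it (background 10.6%) and 4 of 31 were below -0.25 (background 12.9%, the same share as among these genes). The count above 0.25 was 0 with 32 added to every signal and with all probe sets in use.

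**Figure D1:**
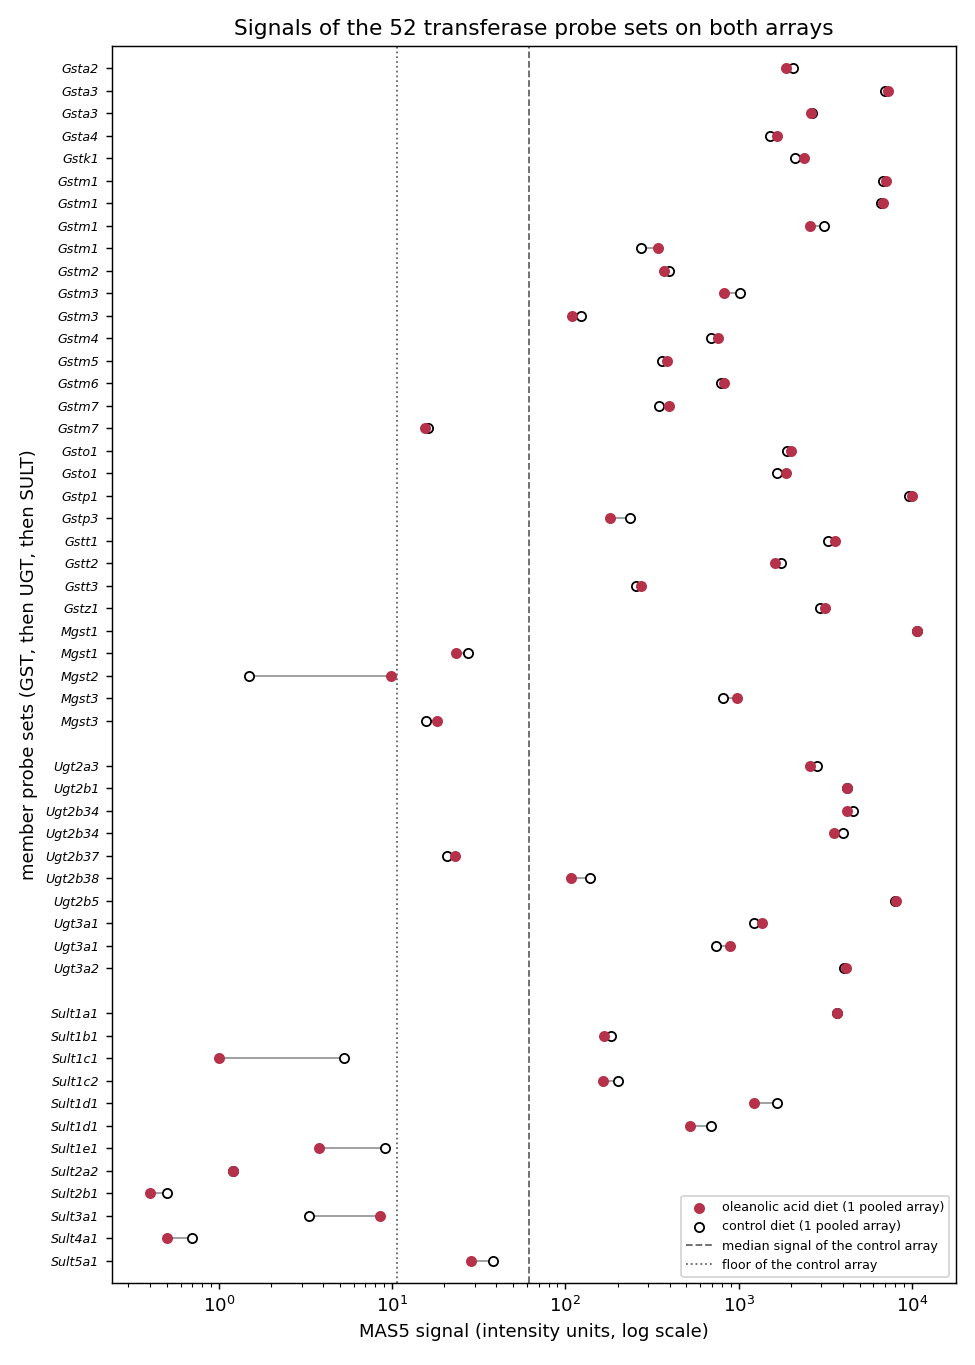
MAS5 signal (intensity units, log scale) of each of the 52 probe sets, with filled red points for the oleanolic acid array and open points for the control array, 1 pooled array each. The dashed line is the control array's median (61.5) and the dotted line its floor (10.7), and wide gaps between the points of a probe set occur below the floor, at Mgst2, Sult1c1, Sult1e1 and Sult3a1.

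The GST genes were the most completely measured family, 20 of 21, with values on both sides of 0. Their median log2 ratio was 0.07, with a range of -0.40 to 0.26, and 14 of 20 were above 0 (13 of 20 after quantile normalization and 12 of 20 after loess centring). The median of all measured genes was 0.0012 with 50.2% above 0 (52.2% after quantile normalization and 52.1% after loess centring). In the brightest band, which held 14 of the 20 GST genes, it was 0.03 with 58.2% above 0.

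Among the alpha class GSTs, Gsta3, which in mice detoxifies the aflatoxin epoxide, had 2 measured probe sets with signals of 7233 and 2603 in the oleanolic acid array, against 6974 and 2665 in the control array. These were nearly equal and their log2 ratio was 0.0093 ± 0.06 (SD, n = 2 probe sets), turning to -0.03 with quantile normalization and with loess centring. Gsta4, which conjugates the lipid peroxidation product 4-hydroxynonenal, had a signal of 1666 in the oleanolic acid array and 1524 in the control array. Gsta2 gave 1881 in the oleanolic acid array and 2064 in the control array. The log2 ratios of Gsta4 (0.13) and Gsta2 (-0.13) lay on opposite sides of 0, each about as far from it as the probe set SD of their signal band, 0.13.

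The 7 mu class genes, Gstm1 to Gstm7, lie next to each other in the RefSeq annotation with no other protein-coding gene between them, and all 7 were measured. Their log2 ratios ran from -0.24 to 0.19 with a median of 0.07. Gstm7 was the highest, with a signal of 398.5 in the oleanolic acid array and 348.6 in the control array (log2 ratio 0.19, probe set SD 0.17). A dim probe set of Gstm7 below the array medians gave 15.4 units in the oleanolic acid array and 16 in the control array, and with it the gene was at 0.07. Gstm4 (0.15), Gstm5 (0.09) and Gstm6 (0.07) were also above 0, and Gstm2 was at -0.11. Gstm3 had the lowest gene value, and both of its probe sets were lower with oleanolic acid. They gave 826 and 109 units in the oleanolic acid array, against 1022 and 123 in the control array, and the log2 ratio was -0.24 ± 0.10 between probe sets (SD, n = 2). The brighter of them carries the _s_at suffix of probe sets shared by several transcripts, so it may not report Gstm3 alone. Without it the log2 ratio was -0.17, from the dim probe set.

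Gstm1, the best represented mu gene with 4 probe sets, showed how far probe sets of one gene can disagree. Its 2 brightest probe sets gave 7095 and 6852 units in the oleanolic acid array, against 6816 and 6618 in the control array, log2 ratios of 0.06 and 0.05. A further probe set gave 2589 in the oleanolic acid array and 3125 in the control array (-0.27), and the dimmest gave 341 in the oleanolic acid array and 273 in the control array (0.32). The mean was 0.04 ± 0.24 (SD, n = 4 probe sets). Mu class transcripts are close in sequence, and 2 of these 4 probe sets carry the _x_at suffix that Affymetrix gives to probe sets matching several transcripts, so signal from the neighbouring genes cannot be separated here. Over the 7 transferase genes with several measured probe sets, 5 had probe sets on the same side of 0, and the widest gap, 0.59, was that of Gstm1. Among these 5, Gstm3, Gsto1, Ugt2b34 and Ugt3a1 each include a probe set ending in _x_at or _s_at.

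Gstp1, the pi class enzyme with higher expression in male than female mouse liver, was nearly equal, with 9966 units in the oleanolic acid array and 9622 in the control array (log2 ratio 0.05, and -0.02 with loess centring). Its relative Gstp3 had the lowest log2 ratio of the GST genes. It gave 180.0 units in the oleanolic acid array and 237 in the control array, 1.32-fold lower, a log2 ratio of -0.40 from a single probe set in a dim band with a probe set SD of 0.25. Theta class members lay close to 0, Gstt1 at 0.12, Gstt3 at 0.09 and Gstt2 at -0.12. Gstz1, the maleylacetoacetate isomerase of tyrosine breakdown, was at 0.08, and Gsto1, the omega class dehydroascorbate reductase, at 0.13 ± 0.08 (SD, n = 2 probe sets). Gstk1, the kappa class enzyme of mitochondria and peroxisomes, had 2384 units in the oleanolic acid array and 2120 in the control array (log2 ratio 0.17, probe set SD 0.13).

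The membrane-bound GSTs included the member with the highest value. Mgst1, of the endoplasmic reticulum and outer mitochondrial membrane, gave 10698.5 units in the oleanolic acid array and 10725.9 in the control array, a log2 ratio of -0.0037. Its dim second probe set gave 23.3 units in the oleanolic acid array and 27.3 in the control array, which put the gene at -0.12 when all probe sets were used. Mgst3, a microsomal enzyme with glutathione peroxidase activity, gave 972 units in the oleanolic acid array and 814 in the control array, 1.19-fold higher. Its log2 ratio of 0.26 (probe set SD 0.13) was the highest of all 31 genes and the only one above 0.25, and it was 0.25 with 32 added to every signal and 0.24 with all probe sets in use. A second, dim probe set of Mgst3 below the array medians gave 18.2 units in the oleanolic acid array and 15.6 in the control array. Mgst2 was not measured, with 9.8 units in the oleanolic acid array and 1.5 in the control array, both below the floor of 10.1 and 10.7 units and so without an order.

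**Figure D2:**
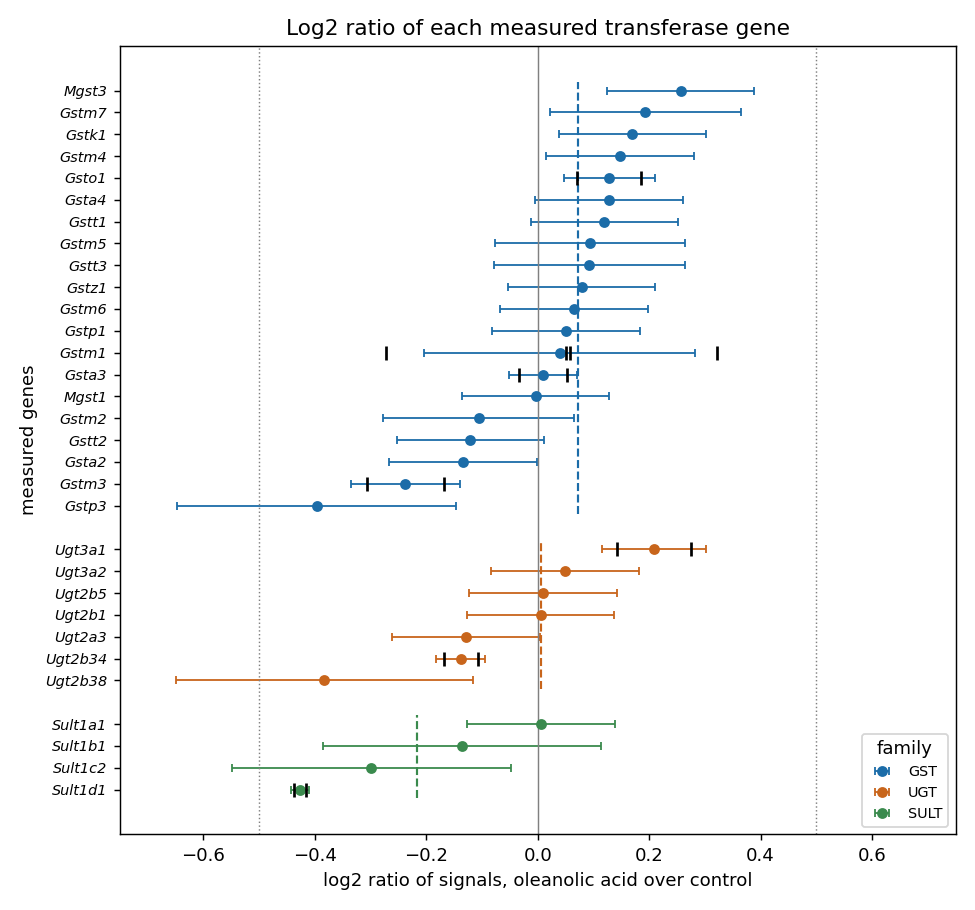
Log2 ratio of signals, oleanolic acid over control, of the 31 measured genes by family. Points are gene values, bars 1 probe set SD, black ticks the single probe sets of genes with several, dashed lines the family medians (GST 0.07, UGT 0.01, SULT -0.22) and dotted lines a log2 ratio of 0.5 in either direction. The 4 lowest points are Sult1d1, Gstp3, Ugt2b38 and Sult1c2.

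The antioxidant response element was looked for because Nrf2 acts on GST genes through it. The RefSeq table (GRCm38.p6) held promoters of 35 of the 40 genes, all but Gsta4, Gstt2, Sult2a2, Sult4a1 and Ugt3a2. In the 250 bases before the annotated start, the core TGACNNNGC, read on both strands, was found in 4 of these genes, all GSTs. Per promoter this was 8.89% of 45, against 10.2% of all 32851 promoters. The 4 matches are shown with 16 bases on each side, 5′ to 3′ on the gene's strand, with the core in capitals (for Mgst1 it reads on the opposite strand). They lie at chr1:21240448-21240488 (plus strand), chr3:107895796-107895836 (plus strand), chr3:107931719-107931759 (minus strand) and chr6:138140455-138140495 (plus strand).
Gsta3: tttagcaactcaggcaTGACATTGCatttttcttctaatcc
Gstm5: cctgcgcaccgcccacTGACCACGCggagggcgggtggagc
Gstm7: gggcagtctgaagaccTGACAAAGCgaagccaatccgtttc
Mgst1: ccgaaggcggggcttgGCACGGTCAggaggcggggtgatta
The log2 ratios of these genes were 0.0093 for Gsta3, 0.09 for Gstm5, 0.19 for Gstm7 and -0.0037 for Mgst1. The xenobiotic response element core GCGTG, on either strand, was found in 22.2% of the 45 promoters (9 genes), against 28.2% of all promoters, and in Gstm5 1 of its 2 matches overlaps the antioxidant core. The D-box TTANGTAA, bound by the factors Dbp, Tef and Hlf, was found in 4.44% (Ugt2b1 and Sult1a1), against 2.06%. A match is a stretch of letters and no evidence of binding.

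The UGT genes had 7 of 8 members measured, with a median log2 ratio of 0.0051 and a range of -0.38 to 0.21. The median lay at -0.04 after quantile normalization and -0.05 after loess centring, and 4 of 7 genes were above 0 as deposited, against 2 of 7 under either of these scalings. Of all measured genes, 50.2% were above 0 as deposited, 52.2% after quantile normalization and 52.1% after loess centring. Ugt2b5, Ugt2b1 and Ugt2b34 were even or slightly lower in the oleanolic acid array. Ugt2b5, which acts on steroids and phenols, gave 8080 units in the oleanolic acid array and 8025 in the control array. Ugt2b1 gave 4213 in the oleanolic acid array and 4198 in the control array, so that both ratios were at 0.01, turning to values between -0.02 and -0.05 under quantile normalization and loess centring. Ugt2b34 was lower on both probe sets, with 4226 and 3571 units in the oleanolic acid array, against 4553 and 4014 in the control array (log2 ratio -0.14 ± 0.04, SD over its 2 probe sets).

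Ugt2a3 gave 2586 units in the oleanolic acid array and 2827 in the control array (log2 ratio -0.13, probe set SD 0.13). Ugt2b38 was the lowest UGT, with 107 units in the oleanolic acid array and 139.5 in the control array. Its log2 ratio of -0.38 came from 1 probe set in the dimmest signal band, where the probe set SD was 0.27. Ugt3a1, whose human counterpart transfers N-acetylglucosamine in place of glucuronic acid, was the highest UGT. Its probe sets gave 1359 and 893 units in the oleanolic acid array, against 1231 and 738 in the control array. The log2 ratio was 0.21 ± 0.09 between probe sets (SD, n = 2). Ugt3a2 was at 0.05, and Ugt2b37 was not measured, with 23.1 units in the oleanolic acid array and 20.7 in the control array.

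The SULT genes were the least completely measured family and had the lowest values. Only 4 of 11 were measured, all of the SULT1 subfamily, with a median log2 ratio of -0.22 and a range of -0.43 to 0.0058. Of these 4, 1 was above 0 as deposited (50.2% of all measured genes) and 0 after quantile normalization (52.2%) or loess centring (52.1%). Sult1d1, which in mice sulfates catecholamines, had the largest difference of all 31 genes. Its probe sets gave 1233 and 521 units in the oleanolic acid array, against 1670 and 694.5 in the control array. Both were lower with oleanolic acid, by nearly the same factor, and the gene was 1.34-fold lower, with a log2 ratio of -0.43 ± 0.02 between probe sets (SD, n = 2). The value stayed between -0.44 and -0.41 under the alternatives run. Both probe sets lie far above the floor and the medians, so most of these settings could hardly change it. Quantile normalization and loess centring each gave -0.42. Sult1d1 was also the only gene of the brightest signal band among the 4 below -0.25.

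Sult1d1 was therefore chosen for printing its upstream region, together with Mgst3, the gene with the highest log2 ratio. The 250 bases before each start are given 5′ to 3′ on the gene's strand, from chr5:87569007-87569256 and chr1:167393842-167394091, both on the minus strand of GRCm38.p6 as in RefSeq. Capitals mark the GCGTG core, read on the opposite strand in Sult1d1, and neither region held the antioxidant core or the D-box.
Sult1d1: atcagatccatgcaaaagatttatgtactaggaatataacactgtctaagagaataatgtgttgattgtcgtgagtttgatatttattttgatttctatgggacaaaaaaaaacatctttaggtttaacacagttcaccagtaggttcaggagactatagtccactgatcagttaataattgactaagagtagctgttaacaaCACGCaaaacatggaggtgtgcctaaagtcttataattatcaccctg
Mgst3: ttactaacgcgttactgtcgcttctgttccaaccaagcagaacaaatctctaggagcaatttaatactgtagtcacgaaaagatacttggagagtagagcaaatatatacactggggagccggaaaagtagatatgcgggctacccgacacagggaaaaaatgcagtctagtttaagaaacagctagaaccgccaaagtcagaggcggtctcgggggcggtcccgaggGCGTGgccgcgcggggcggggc
The same core was present at the gene with the lowest and at the gene with the highest log2 ratio, and in 28.2% of all promoters. Whether it goes with the direction of a difference was not tested.

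Sult1c2 was the second lowest SULT, with 164 units in the oleanolic acid array and 202 in the control array (log2 ratio -0.30, probe set SD 0.25). Sult1b1, which sulfates thyroid hormones, gave 166.5 units in the oleanolic acid array and 183 in the control array (-0.14, probe set SD 0.25). Both are dim genes whose differences were close to or below the spread between probe sets of one gene. Sult1a1, the phenol sulfotransferase, was even, at 3692 units in the oleanolic acid array and 3678 in the control array (0.0058, and -0.03 with quantile normalization or loess centring).

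The other 7 SULT genes were not measured, and 6 of them were below the floor on both arrays. Sult1e1, the estrogen sulfotransferase, gave 3.8 units in the oleanolic acid array and 9.1 in the control array. The hydroxysteroid sulfotransferase Sult2a2 gave 1.2 units on each array, and Sult3a1, which like Sult2a2 is known mainly from female mouse liver, gave 8.5 in the oleanolic acid array and 3.3 in the control array. Sult1c1 gave 1.0 in the oleanolic acid array and 5.3 in the control array. The cholesterol sulfotransferase Sult2b1 and the brain-expressed Sult4a1 were below 1 unit on both arrays. Sult5a1 lay between floor and median, with 28.6 units in the oleanolic acid array and 38.3 in the control array. Whether any of these was above background is unknown without detection calls, and no fold is given.

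**Figure D3:**
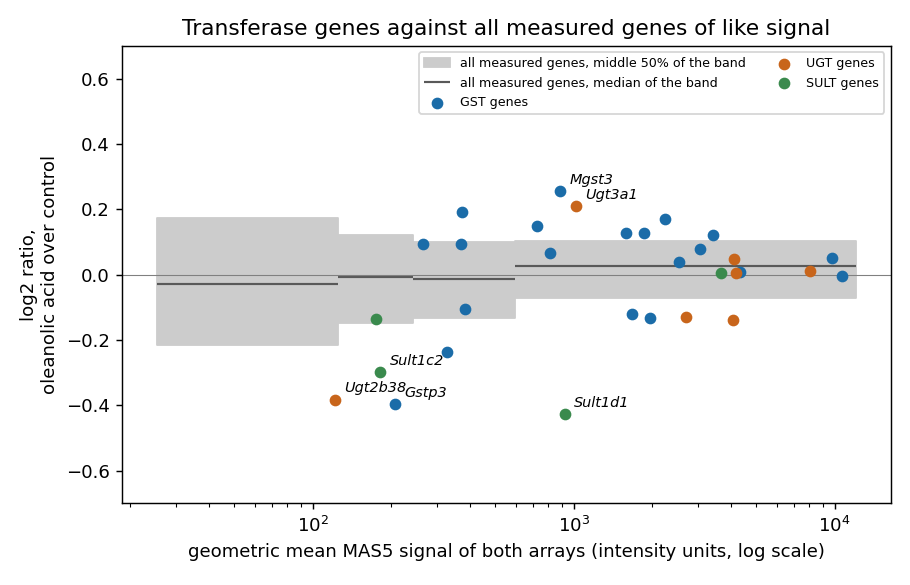
Log2 ratio, oleanolic acid over control, of each measured transferase gene against its geometric mean signal (intensity units, log scale). Grey boxes span the middle 50% of all measured genes in each of 4 signal bands and grey lines their medians. Sult1d1 is the one transferase of the brightest band far below its box, while Ugt2b38, Gstp3 and Sult1c2 lie at low signal.

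Set side by side, the median of the SULT genes was 0.29 below that of the GST genes and 0.22 below that of the UGT genes on the log2 scale, and the UGT median was 0.07 below the GST median. The family medians rest on 4, 7 and 20 different genes, which are not replicates of a diet, so these gaps have no test. With unmeasured genes counted too, the SULT median was -0.08, which is the ratio that the floors of the 2 arrays give to a gene below both. The families also differed in signal. Of 22 members in the brightest band (mean signal above 594 units), 16 were above 0 (72.7%) with a median of 0.04, against 58.2% and 0.03 over all genes of that band, and 1 was below -0.25, against 5.77%. Of the 9 dimmer members, 6 were below 0 (66.7%) with a median of -0.14, against 52.3% and -0.01 over all genes of those bands, and 3 were below -0.25, against 15.2%. The part of signal level in the family gaps was not tested.

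Some of these genes are neighbours in the genome. In RefSeq's order, 13 protein-coding genes from Ugt2b34 to Sult1e1 form an unbroken row of UGT2 and SULT1 genes, of which 9 are among the 40 and 7 were measured. Their median log2 ratio was -0.14 with 5 of 7 below 0, from Sult1d1 at -0.43 to Ugt2b5 at 0.01, against 49.7% of all measured genes below 0. After quantile normalization or loess centring 7 of 7 were below 0, against 47.6% and 47.9% of all measured genes. Ugt2b1 and Ugt2b5 changed side, since they lie close to 0. Of the 7 genes, 5 are in the brightest band, where the median of all genes as deposited was 0.03. The 7 genes of the Gstm row had 2 of 7 below 0. These are counts over neighbours of related sequence, with no test.

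Genes that supply the cosubstrates or carry the products were also mostly near 0. Of the glutathione list, 22 of 29 genes were measured, with a median log2 ratio of 0.05 and 0 past 0.5 in either direction (background 2.63% above and 3.24% below). Its highest members were Gclc, the catalytic subunit of the rate-limiting enzyme of glutathione synthesis, and Cbs, the first enzyme from homocysteine to cysteine. Gclc gave 3301 units in the oleanolic acid array and 2484 in the control array (0.41 ± 0.03, SD, n = 2 probe sets), and Cbs gave 1236 in the oleanolic acid array and 948 in the control array (0.38 ± 0.04, SD, n = 2 probe sets). Glo1 (0.23) and Oplah (0.18) followed, while Gclm, the partner subunit of Gclc, was at 0.11 and the synthetase Gss at 0.02. All 10 measured genes of the UDP-glucuronate list lay within 0.25 of 0 (background 76.6%), with a median of -0.05. They included Ugdh, which makes UDP-glucuronate, at -0.06, and Gulo, the last enzyme of vitamin C synthesis in mice, lowest at -0.23, with Slc35d1 at -0.14, Ugp2 at -0.13 and Pgm1 at -0.09.

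Of the PAPS and sulfur list, 14 of 19 genes were measured, with 1 above 0.5 (background 2.63%), 0 below -0.5 (background 3.24%) and a median of 0.12. That 1 gene was Ethe1, a mitochondrial sulfur dioxygenase, with 969 units in the oleanolic acid array and 637 in the control array (log2 ratio 0.61, probe set SD 0.13). Mpst (0.32) and the sulfite oxidase gene Suox (0.22) were also above 0. Ethe1, Mpst and Suox are listed under sulfate cleavage and sulfite oxidation, and genes listed under PAPS synthesis and transport lay on both sides of 0. Papss2, a PAPS synthase, was at -0.29 ± 0.65 (SD, n = 3 probe sets), so its probe sets disagreed by more than the value, and Papss1 was at 0.13. The others measured were Bpnt1 (0.13), Slc26a1 (0.04), Slc35b3 (-0.02) and Slc35b2 (-0.09). Of the transporters of conjugates, 12 of 16 were measured, with 1 below -0.5 (background 3.24%) and a median of -0.13. Abcc5 was dim, with 67.5 units in the oleanolic acid array and 101.5 in the control array (-0.59, probe set SD 0.27). The canalicular exporter Abcc2 was at -0.14 and the basolateral exporter Abcc3 highest at 0.26, with Slc22a7 at -0.19 and Slco1a4 at -0.17. The list of other conjugating enzymes, which also holds relatives of the GSTs, had 11 of 17 measured and 0 past 0.5 in either direction. Its median was -0.16, with 10 of 11 below 0 (background 49.7%). Tpmt, the thiopurine methyltransferase, was at -0.48 ± 0.29 (SD, n = 2 probe sets), Nnmt at -0.42 and Baat, which joins bile acids to amino acids, at 0.23. Alox5ap, listed as a relative and not as a conjugating enzyme, was at -0.18.

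Regulators of these families spread further than the enzymes. Of 31 listed, 25 were measured, with 1 above 0.5 (background 2.63%), 2 below -0.5 (background 3.24%) and a median of -0.02. Dbp and Tef, clock-controlled factors of the PAR bZip group that act on detoxification genes in mouse liver, were lowest. Dbp gave 825 units in the oleanolic acid array and 1936 in the control array (log2 ratio -1.23 ± 0.06, SD, n = 2 probe sets), and Tef gave 219 in the oleanolic acid array and 411 in the control array (-0.91 ± 0.17, SD, n = 2 probe sets). The related repressor Nfil3 was at 0.66 and Bach1, which competes with Nrf2, at -0.43. The Nrf2 gene Nfe2l2 was at -0.07, and the xenobiotic receptor genes lay at -0.10 for Nr1i2 (PXR), -0.22 for Nr1i3 (CAR) and -0.30 for Ahr. Keap1, which holds Nrf2 back, was at 0.38 ± 0.33 (SD, n = 2 probe sets).

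**Figure D4:**
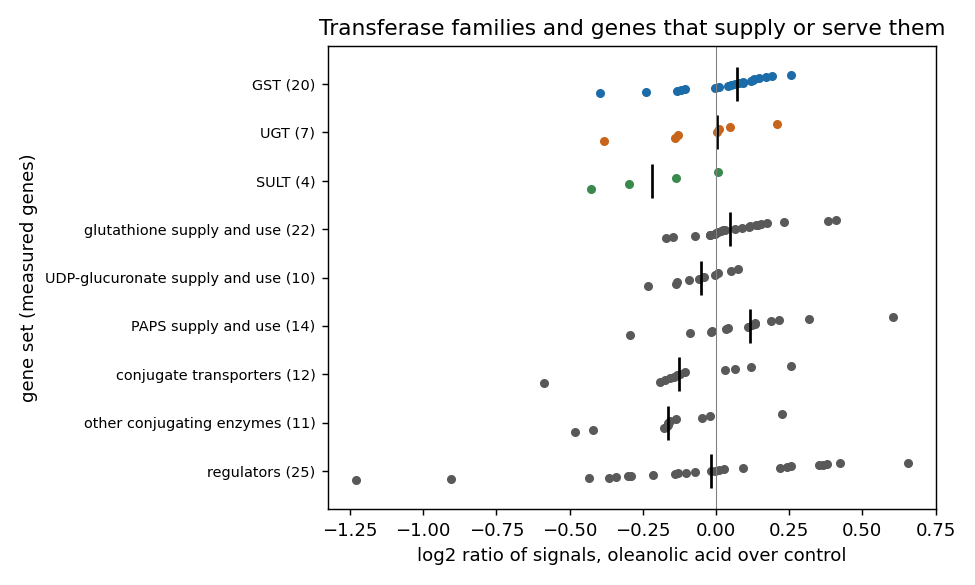
Log2 ratio, oleanolic acid over control, of each measured gene in the 3 transferase families and 6 lists of other genes, with the number measured in brackets. The lists hold genes that supply, serve or regulate the families, and other conjugating enzymes with some relatives of the GSTs. Points are genes, spread vertically within a list in order of value, and black bars are medians. The families and cosubstrate lists stay within 0.61 of 0, while Dbp and Tef lie below -0.9.

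Hepatocyte markers were mostly even between the arrays, while markers of some other tissues were lower in the oleanolic acid array. Signals summed over the 10 hepatocyte markers with a probe set, each by its brightest one, were 83322 in the oleanolic acid array and 83039 in the control array, a sum carried by the brightest of them. Their log2 ratios had a median of 0.04, with Tat at -0.70 and Pck1 at -0.25. All 8 measured exocrine pancreas markers were below -0.5, against 3.24% of all measured genes. Their summed signal was 298 in the oleanolic acid array and 979 in the control array. Both measured B and plasma cell markers were also below -0.5, with sums of 235.7 in the oleanolic acid array and 1069 in the control array (Cd79a at the floor on both). So were 2 of 3 brown fat and muscle markers, with sums of 142 in the oleanolic acid array and 305 in the control array (Actn3 and Myh4 at the floor on both). Ighm, a B cell marker, was at -1.97 ± 1.31 (SD, n = 3 probe sets). In the oleanolic acid array the pancreas markers (18.7 to 51.6 units), Jchain (43.8), and Ucp1 and Cox8b (at the floor of 10.1) lay below its median of 59.3. They counted as measured mainly through the control array, where they were higher, a rule that favours ratios below 0. Other sums were closer, although single markers differed within them. Endothelial markers summed to 2913 in the oleanolic acid array and 2903 in the control array, stellate markers to 6632 in the oleanolic acid array and 6724 in the control array, and macrophage markers to 5855 in the oleanolic acid array and 6222 in the control array. Lrat was at 0.66 among stellate markers, with 75.9 units in the oleanolic acid array and 48.1 in the control array, below that array's median. All 7 measured macrophage markers were below 0, against 49.7% of all measured genes, with Marco lowest at -0.67. Intestine and kidney markers summed to 2561 in the oleanolic acid array and 2587 in the control array, and red cell markers to 383 in the oleanolic acid array and 404 in the control array, with 1 measured marker each, Fabp2 at -0.01 and Alas2 at -0.07. Of 8 cholangiocyte markers 1 was measured, Epcam at -0.94, and their sum was 145.2 in the oleanolic acid array and 145.0 in the control array. Epcam gave 32.9 units in the oleanolic acid array and 63.1 in the control array, so it reached the median in the control array alone. The part of these markers in the transferase values was not tested.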

How the data were processed

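Liver RNA was hybridized as biotinylated cRNA to Affymetrix arrays, 1 pooled array per diet, per the labels' protocols. The authors deposited linear MAS5 intensities (signals), per the submitters' processing notes, which state no version. A 2% trimmed mean gave 300.1 for both arrays, so the scaling was kept. Detection calls were not in the table of 22690 probe sets. A MAS5 signal depends on its own probes, so signals of different genes are not compared as levels. Names came from GEO's platform annotation (20380 probe sets with 1 symbol), and all 52 member probe sets matched RefSeq (GRCm38.p6) by gene identifier.

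Signals were raised here to each array's 25th percentile (10.1 in the oleanolic acid array, 10.7 in the control array) and converted to log2. Measured probe sets of a gene were averaged. Errors are the SD between them or, with 1 probe set, the pooled SD of the signal band (0.27, 0.25, 0.17 and 0.13 from dim to bright, from 2427 genes with at least 2 probe sets). They cover probe error, not variation between mice, and the number of arrays limits the precision.

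The members, gene lists and sizes were chosen with earlier results of these data known. Genes named were all members, the 4 largest differences of each partner list and the main regulators. Hlf, Gclm, Gss, Ugdh, Papss1, Bpnt1, Slc26a1, Slc35b3, Slc35b2, Abcc2, Epcam, Tat, Pck1, Lrat, Marco, Fabp2 and Alas2 were added after their values were seen. The steps were tested on simulated data (Python 3.11.15, numpy 2.4.6, pandas 2.3.3, statsmodels 0.14.6). Alternatives changed the floor, the measured rule, the choice of probe sets and the scaling.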

Additional observations from a re-analysis of the deposited data

How the results depend on the processing

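Under 8 alternatives chosen at the start and 1 added after seeing the data (genes of the brightest signal band alone), no transferase gene passed 0.5 or 1.5 in either direction. Most genes have 1 measured probe set far above the floor, which the settings for floor, measured rule and probe set choice leave nearly unchanged by construction, so these say little about their stability. The count above 0.25 ran from 0 to 1 and the count below -0.25 from 1 (brightest band) to 5. The GST median stayed between 0.06 and 0.07 and the SULT median between -0.22 and -0.08, the value nearest 0 coming from the use of all probe sets. The UGT median lay between -0.05 and 0.0074 and was below 0 after quantile normalization (-0.04) and loess centring (-0.05). No alternative moved the median of all genes by over 0.1: it ran to -0.08 with all probe sets in use and to 0.03 in the brightest band. No paired analysis was possible because each diet has 1 array, and for the same reason no array could be left out. Without detection calls, signals near the floor give no order.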

Other observations

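The glucuronosyltransferases of the Ugt1a locus, which includes the bilirubin-conjugating Ugt1a1, were reported only by probe sets that carry several symbols and so were not among the 40 genes. Their transcripts share their last exons and differ in the first. The 3 probe sets naming 8 Ugt1a genes gave 7849, 6356 and 5591 units in the oleanolic acid array, against 8037, 6404 and 5459 in the control array. Their log2 ratios were -0.03, -0.01 and 0.03, so the summed Ugt1a signal differed little between these arrays, and single Ugt1a genes were not analysed here. A probe set shared by Gsta1, Gsta2 and Gm3776 gave 1402 units in the oleanolic acid array and 1444 in the control array (-0.04), and one shared by Ugt2a1 and Ugt2a2 gave 10.8 in the oleanolic acid array and 11.2 in the control array.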
